A study of Homo sapiens with 60 samples.

Results

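Spheroids of the human colorectal cancer line HCT116 were compared with and without hemin in the medium that the labels call Medium 2. The comparison rests on 10 of the study's 60 libraries, 5 whose table columns name Medium 2 and hemin alone and 5 that name Medium 2 and no treatment, so the members were chosen by label and not by any measured value. Hemin was given at 0.1 µM from day 1 to day 8 after seeding, and the untreated spheroids grew in the same high-glucose culture medium with serum, without an added compound. The other libraries used beside them include hemin and untreated spheroids of Medium 1. From Medium 2 come hemin together with 1 µM kynurenine, and 1 µM kynurenine alone. Butyrate and kynurenic acid, each at 1 µM, are used from both media. Each group of a medium and a treatment has 5 libraries, and hemin was at 0.1 µM in all hemin groups. The series design says that spheroids were lysed either at once or after 3 h in a medium poor in nutrients, but nothing in the labels ties either to Medium 1 or Medium 2. The labels give the molecule as cytoplasmic RNA, and each of the 5 libraries of a group is called a biological replicate of this 1 cell line. Whether they came from separate cultures is not stated, and the p-values then reflect only how far these samples spread, which may be technical.

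Hemin is the oxidised, chloride-bound form of heme. In cells, heme binds the repressor BACH1 and frees antioxidant genes such as the heme oxygenase HMOX1, which opens the heme ring and releases iron. Released iron acts through iron regulatory proteins, which in iron-poor cells hold ferritin mRNA untranslated and keep the mRNA of the transferrin receptor stable, and heme itself also lowers ALAS1, the first enzyme of its own synthesis. In the gut, heme from red meat is a known source of oxidative stress for the epithelium.

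The 10 libraries held 1346135 to 1824740 counts with hemin and 1617479 to 1934973 without. If PCR copies were removed before counting, 1 count stands for about 1 transcript molecule read at its 3' end. Correlations of log2 levels had a median of 0.9581 within the groups and 0.9541 between hemin and untreated libraries. On the leading principal component of these 10 libraries (16.3% of their variance), the hemin library of well E6 lay at 43.46 and the other 9 between -16.87 and 14.79. Markers of colorectal epithelium summed to between 1380 and 1541 CPM (counts divided by the TMM-scaled library total, the unit of all levels here) with hemin and between 1471 and 1698 without, with VIL1 and LGALS4 at 0 in all 10. Of the 8 epithelial markers tested, all 8 had log2 fold changes below 0, against 49.9% of all genes tested. They ran from -0.33 for the tight junction gene CLDN4 to -0.02 for the keratin KRT8. At an unadjusted p under 0.05, 2 were lower and 0 higher, against 3.24% and 4.33% of all genes. In Medium 1, 6 of the 8 lay above 0 with hemin, and 5 of the 8 did with hemin added to kynurenine in Medium 2. Whether the lists below moved with these markers was not tested, and in bulk RNA fewer cells of a type and less RNA per cell cannot be told apart. Fibroblast markers summed to at most 7.62 CPM, immune markers to 5.57, endothelial markers to 2.43 and the 6 erythroid markers analysed to 1.65.

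No gene passed in this comparison. Of 11298 genes tested, 0 had an adjusted p under 0.05 (0% called) by the quasi-likelihood F-test of edgeR, adjusted by the Benjamini-Hochberg method, and the smallest adjusted p was 0.222. The p-values below are from this test unless another is named. At an unadjusted p under 0.05 there were 855 genes (7.57%), 489 higher with hemin (4.33%) and 366 lower (3.24%). DESeq2 also called 0 and had 856 at an unadjusted p under 0.05. The 5 hemin libraries lay entirely above the 5 untreated ones for 93 genes (0.823%) and entirely below them for 94 (0.832%), together 187 genes (1.66%). The 95% interval of a gene's log2 fold change had a median half-width of 0.43, and for 8989 genes (79.6%) the whole interval lay within a 2-fold change in either direction. For these 8989 genes a change of 2-fold or more lies outside the interval. The hemin and untreated libraries sat in different plate columns, so treatment and plate column cannot be told apart.

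**Figure D1:**
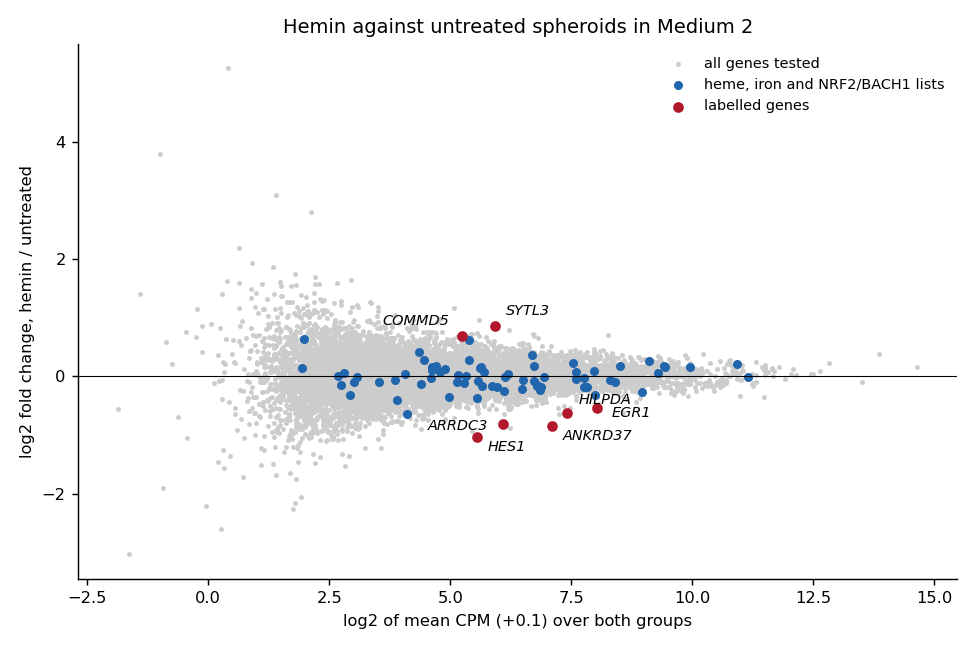
Log2 fold change of hemin against untreated spheroids in Medium 2 (vertical axis) against the log2 of the mean CPM plus a small constant over both groups (horizontal axis), with 1 point for each of 11298 genes, the heme, iron and NRF2/BACH1 lists in blue and 7 labelled genes in red. Most blue genes lie in the body of the grey cloud, and the labelled genes lie along its upper and lower edges, among them HES1 at -1.03 and SYTL3 at 0.86.

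HMOX1, the inducible heme oxygenase, held 46.2 ± 3.86 CPM with hemin and 48.7 ± 6.71 without (SD over 5 libraries each, here and below). The gene lies on chromosome 22 (chr22:35381096-35394207, GRCh38.p14, whole gene span). Hemin libraries held 40.4, 49, 47, 50 and 44.5 CPM in wells A6 to E6, and untreated libraries held 52, 57.8, 47.3, 39.6 and 47 in wells G4, H4, A5, B5 and C5, the well order used for all values below. The groups overlapped, and both the highest and the lowest value came from untreated spheroids. The log2 fold change was -0.08 with a 95% interval of -0.48 to 0.32 (adjusted p = 0.952). The constitutive heme oxygenase HMOX2 had 0.15 (-0.23 to 0.54), and the biliverdin reductases BLVRA and BLVRB, which turn the product of heme oxygenase into bilirubin, had 0.28 and -0.16. POR, the reductase that passes electrons to heme oxygenase, had 0.07. Of these 5 genes of heme breakdown, 0 had an unadjusted p under 0.05, and all 5 intervals stayed within a 2-fold change.

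In Medium 1 the same 5 genes all had log2 fold changes above 0, with a median of 0.39 against 0.07 in Medium 2. HMOX1 had 0.39 there (adjusted p = 0.235), from a median of 34.5 CPM untreated to 47.1 with hemin, and BLVRB had 0.47 (adjusted p = 0.0985). Neither passed, and the differences between media were -0.47 for HMOX1 (adjusted p = 0.446) and -0.64 for BLVRB (adjusted p = 0.271). When hemin was added to kynurenine in Medium 2, with libraries that this comparison does not share, HMOX1 had 0.14 and BLVRB 0.45 (adjusted p = 0.81 and 0.217). The kynurenine library of well A7 correlated with the 4 others of its group at 0.8933 to 0.9338, and these among themselves at 0.9472 to 0.9675. Without it, the values were 0.30 and 0.51 (adjusted p = 0.611 and 0.299). The hemin plus kynurenine library of well H7 correlated with the 4 others of its group at 0.9436 to 0.9597, and these among themselves at 0.9694 to 0.9772. No fit left out H7. Its group also held more counts, with a median of 2615812 against 1836667 with kynurenine alone.

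Genes of heme synthesis varied in both directions. ALAS1, the rate-limiting enzyme, had a log2 fold change of 0.04 (-0.31 to 0.38), with 63.2 to 84.8 CPM with hemin and 61.8 to 90.5 without, so that the hemin libraries lay inside the untreated range. CLPX, the protease partner that controls ALAS1 in mitochondria, held 42.7, 45.7, 34.9, 42.7 and 38.9 CPM with hemin and 44, 52.4, 57.2, 55.5 and 55.7 without, a log2 fold change of -0.37 (adjusted p = 0.587). The last enzyme, FECH, which inserts iron, had 0.08 (-0.20 to 0.36), and CPOX had -0.32 (adjusted p = 0.683). Of the 13 members 1 was higher and 1 lower at an unadjusted p under 0.05, against 4.33% and 3.24% of all genes. Below 0 lay 7, against 49.9% of all genes, and the median was -0.03 against 0.001 over all genes tested.

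Of 12 tested genes of heme transport and binding, 10 lay below 0, against 49.9% of all genes, with a median of -0.14. At an unadjusted p under 0.05, 1 was lower and 0 higher, against 3.24% and 4.33% of all genes. In Medium 1, 9 of the 12 lay above 0 (median 0.13). With hemin added to kynurenine in Medium 2, 10 of the 12 lay above 0 (median 0.27). ABCB10, a mitochondrial transporter needed for heme synthesis, had the smallest p, with 13.4 ± 2.72 CPM against 20.7 ± 6.71 and a log2 fold change of -0.64 (unadjusted p = 0.0442, adjusted p = 0.652). The heme exporter FLVCR1 had -0.14 (-0.52 to 0.24), and the endosomal heme importer SLC48A1 had -0.09 (-0.60 to 0.42).

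**Figure D2:**
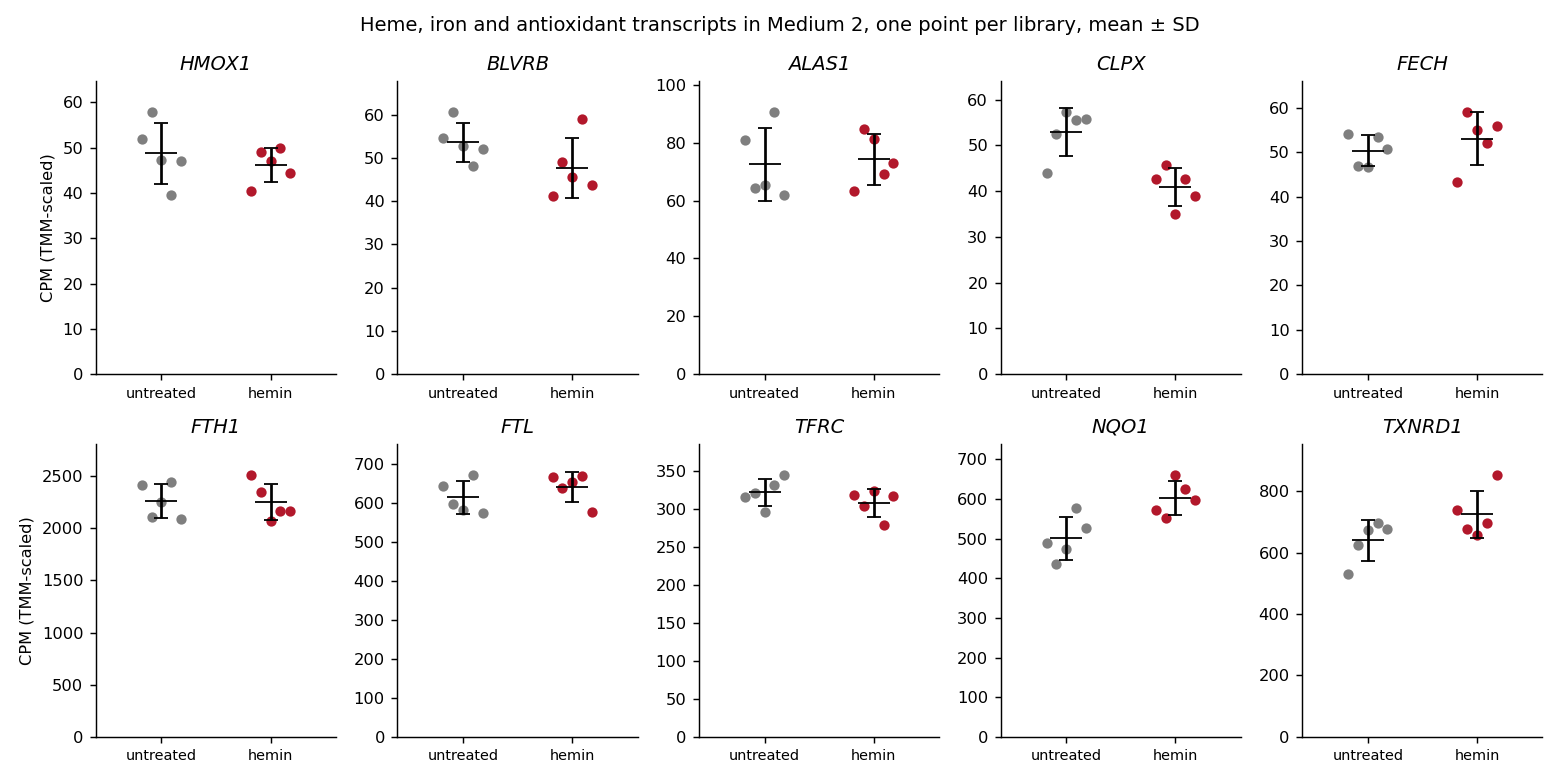
CPM (vertical axes, from 0) of 10 heme, iron and antioxidant genes in the 5 untreated (grey) and 5 hemin libraries (red) of Medium 2, with 1 point per library and bars for the mean ± SD. The groups overlap in every panel, also for CLPX, with 34.9 to 45.7 CPM with hemin and 44 to 57.2 without.

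Iron control acts on the mRNAs of ferritin and the transferrin receptor through iron-responsive elements, hairpins with a CAGTGN loop. They are shown because these 3 mRNAs carry the textbook reading of iron released from heme. The search took a C, any 5 bases, the loop CAGTG with A, C or T, and 5 bases that pair with those before the loop. On the transcript strand of GENCODE v29 transcripts (GRCh38) it found a match in 214 of 19702 protein-coding genes (1.09%). Elements that depart from this pattern are missed. Each site is printed as 30 bases with the loop in capitals. First comes the element of the ferritin heavy chain FTH1 (chr11:61967573-61967602, minus strand, 5' UTR), then that of the light chain FTL (chr19:48965335-48965364, plus strand, 5' UTR). Last are 2 of the 4 matches found in TFRC (chr3:196050978-196051007 and chr3:196050574-196050603, minus strand, 3' UTR).
FTH1: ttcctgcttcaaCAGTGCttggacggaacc
FTL: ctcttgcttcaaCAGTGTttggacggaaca
TFRC site 1: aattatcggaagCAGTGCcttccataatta
TFRC site 2: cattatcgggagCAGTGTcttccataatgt

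The 5' elements act on translation, which RNA counts do not show, while the 3' elements of TFRC act on the amount of mRNA. TFRC, which takes up transferrin-bound iron, held 318, 303, 323, 278 and 317 CPM with hemin and 315, 321, 296, 331 and 344 without. The groups overlapped, with the 2 highest values in untreated libraries, and the log2 fold change was -0.06 with an interval of -0.28 to 0.15. FTH1 held 2253 ± 174 CPM with hemin and 2266 ± 165 without (-0.01, -0.21 to 0.19), and FTL held 641 ± 38.3 and 615 ± 42.3 (0.06, -0.18 to 0.30). In Medium 1 TFRC had -0.36 (unadjusted p = 0.00125, adjusted p = 0.0637), and its difference between media was 0.30 (adjusted p = 0.379).

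Of the 16 tested genes of iron uptake, storage and export, SLC11A2, a transporter of ferrous iron, was the 1 with an unadjusted p under 0.05 (7.57% of all genes). It held 108, 86.2, 123, 122 and 137 CPM with hemin and 75, 98.2, 91.8, 86.5 and 97.7 without. The hemin library of well B6 lay among the untreated ones and the other 4 lay above all of them, with a log2 fold change of 0.36 (0.07 to 0.65, adjusted p = 0.587). In Medium 1 SLC11A2 had -0.30, and the difference between media was 0.66 (unadjusted p = 0.00232, adjusted p = 0.225). NCOA4, which carries ferritin to the lysosome, had 0.07, and the iron exporter gene SLC40A1 had a summed count of 0 with hemin and 1 without and was not tested. In all 16 genes the interval stayed within a 2-fold change, and the list's median was -0.001.

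The targets of NRF2 and BACH1, the regulators that heme and oxidative stress act on, showed no called member. Of 23 tested, 0 had an unadjusted p under 0.05 in either direction, 13 lay above 0 and 10 below, the median was 0.06, and all 23 intervals stayed within a 2-fold change, against 79.6% of all genes. The peroxiredoxin gene PRDX1 held 1860, 2170, 2210, 2060 and 2090 CPM with hemin and 1720, 1950, 1670, 1920 and 1690 without, a log2 fold change of 0.22 (0.00 to 0.44, adjusted p = 0.662). Only the hemin library of well A6 lay inside the untreated range. NQO1, a quinone reductase, held 572, 552, 660, 626 and 598 CPM with hemin and 488, 435, 474, 578 and 526 without, a log2 fold change of 0.27 (-0.04 to 0.58, adjusted p = 0.734). The thioredoxin reductase TXNRD1 had 0.18, the glutathione synthesis subunit GCLM -0.17, the sulfiredoxin SRXN1 -0.04 and the cystine transporter subunit SLC7A11 -0.08. In Medium 1 TXNRD1 had -0.69 (adjusted p = 0.0581), and its difference between media was 0.86 (unadjusted p = 0.00143, adjusted p = 0.215).

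Among proteins that sense heme or oxidants, the mRNA of BACH1 itself had a log2 fold change of -0.09 (-0.59 to 0.42) and NFE2L2, which encodes NRF2, had -0.12 (-0.46 to 0.22). The heme-regulated kinase EIF2AK1, which phosphorylates eIF2alpha when heme is short, had 0.11 (-0.12 to 0.33). Its downstream factor ATF4 had 0.09, the stress gene DDIT3 0.22 and the asparagine synthetase ASNS 0.27 (adjusted p = 0.932, 0.813 and 0.819). Of 27 genes of the ATF4 response, 2 were higher and 2 lower at an unadjusted p under 0.05, against 4.33% and 3.24% of all genes. The median of the 27 was 0.05. NR1D1 and NR1D2, clock repressors that bind heme, were the 2 of 11 sensors with an unadjusted p under 0.05. Both were lower with hemin, as were 3.24% of all genes at that threshold. NR1D1 held 6.86, 3.98, 5.37, 6.18 and 5.67 CPM with hemin and 11.8, 10.3, 8.25, 7.26 and 7.42 without. Its groups did not overlap, and the log2 fold change was -0.69 (-1.37 to 0.00, unadjusted p = 0.0487, adjusted p = 0.659). These NR1D1 levels rest on few counts, as the hemin libraries held 1346135 to 1824740 counts in all. NR1D2 had -0.30 (adjusted p = 0.628), and in Medium 1 the 2 genes had 0.33 and -0.05.

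The 10 genes of smallest p on each side were described by value, since none passed. HES1, a repressor induced by Notch signalling, had the smallest p of all. It held 36.6, 31.2, 22.1, 33.1 and 30 CPM with hemin and 60.6, 49.7, 85.2, 58.1 and 58.8 without. The groups did not overlap, and the log2 fold change was -1.03 (SE 0.23, unadjusted p = 4.31e-05, adjusted p = 0.222). ARRDC3, an arrestin-like adaptor that limits glucose uptake and receptor signalling, held 47.2, 55, 47, 57.9 and 39.7 CPM with hemin and 87.4, 90.1, 102, 78.6 and 78.5 without, again with no overlap (-0.82, SE 0.20, adjusted p = 0.262). SIAH2, a ubiquitin ligase that acts on the oxygen-sensing prolyl hydroxylases, held 64.4 to 79.2 CPM with hemin and 80.3 to 111 without (-0.47, SE 0.11, adjusted p = 0.262).

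The other genes on the lower side were SEPP1, which encodes the selenium carrier selenoprotein P (5.61 ± 1.14 CPM against 13.1 ± 3.46), the interferon-induced IFIT2, the transcription factor SOX4, the mitochondrial ribosomal gene MRPL47, the MAX partner MNT, the TGF-beta mediator SMAD4 and CCDC7. On the higher side SYTL3, which encodes a synaptotagmin-like protein of vesicle traffic, held 54.1, 96.1, 72.5, 70.2 and 99.6 CPM with hemin and 30, 58.8, 36.3, 45.6 and 45.1 without. Its groups overlapped, and its log2 fold change was 0.86 (SE 0.20, unadjusted p = 5.05e-05, adjusted p = 0.222). COMMD5 held 42.7, 43.1, 49.7, 53.4 and 42.9 CPM with hemin and 23.6, 31.3, 30.2, 24.4 and 34 without, with no overlap (0.69, SE 0.16, adjusted p = 0.222). B4GALT3, a galactosyltransferase, had 0.50 (SE 0.13, adjusted p = 0.3) and MRRF, which recycles mitochondrial ribosomes, had 0.55 (SE 0.14, adjusted p = 0.352), both without overlap. The remaining 6 were BSCL2, C7orf49 (now CYREN), RGS3, POC1A, ULK3 and KCTD7, with adjusted p-values from 0.33 to 0.368.

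Fitted with the 10 libraries alone, edgeR called 4 genes, all lower with hemin. These were HES1 with -1.03 and ARRDC3 with -0.82 (both adjusted p = 0.0113), ANKRD37 with -0.85 (adjusted p = 0.0113) and HILPDA with -0.63 (adjusted p = 0.0123). Over the fit to all 60 libraries and every other alternative tried, the adjusted p of these 4 lay above 0.05. ANKRD37, a target of hypoxia-inducible factors (chr4:185396841-185400723, GRCh38.p14), held 106, 108, 99.3, 71.3 and 109 CPM with hemin and 163, 140, 161, 188 and 230 without. HILPDA, which restrains the breakdown of lipid droplets, held 130, 129, 134, 123 and 158 CPM with hemin and 204, 187, 178, 244 and 226 without. For both genes the groups did not overlap, and their values over all 60 libraries were -0.84 (SE 0.25) and -0.63 (SE 0.18), each with an adjusted p of 0.421.

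Hypoxia response genes as a list lay mostly below 0. Of 19 tested, 15 were lower with hemin against 49.9% of all genes, 5 had an unadjusted p under 0.05 and were lower (3.24% of all genes), 0 were higher (4.33%), and the median log2 fold change was -0.30. Besides ANKRD37 and HILPDA these were ADM, which encodes the vasodilator adrenomedullin, with 79.3, 57, 34.9, 55.6 and 37.3 CPM against 95.4, 92.8, 134, 97.7 and 67.4 (-0.89, adjusted p = 0.478), the clock and hypoxia repressor BHLHE40 with -0.64 and the sterol regulator INSIG2 with -0.57. In ADM the hemin library of well A6 overlapped the untreated ones. The genes NDRG1 and P4HA1 of the same list lay above 0, at 0.18 and 0.19. In a separate list of glycolysis and glucose uptake, 17 of 23 genes lay above 0, with a median of 0.10. At an unadjusted p under 0.05, 1 of these 23 was higher and 2 lower (4.33% and 3.24% of all genes). In Medium 1 the hypoxia list's median was -0.14, and ADM had 0.83 (adjusted p = 0.158). The difference between media for ADM was -1.71 (unadjusted p = 0.000422, adjusted p = 0.158). With hemin added to kynurenine the median was -0.35, with 7 lower and 0 higher at an unadjusted p under 0.05. Over all 11298 genes that comparison had 737 lower and 729 higher. Without the kynurenine library of well A7 the list's median was -0.39, with 6 lower and 0 higher, beside 600 and 584 over all genes.

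The promoter of ANKRD37 is shown because the gene has the smallest p of the hypoxia list. It runs from 250 bases before to 50 after the transcription start in RefSeq (GRCh38.p14, chr4:185396591-185396890, plus strand), with ACGTG, the core that hypoxia-inducible factors bind, in capitals on either strand. The palindrome CACGTG holds the core on both strands, so the 2 capital stretches hold 3 matches.
ANKRD37: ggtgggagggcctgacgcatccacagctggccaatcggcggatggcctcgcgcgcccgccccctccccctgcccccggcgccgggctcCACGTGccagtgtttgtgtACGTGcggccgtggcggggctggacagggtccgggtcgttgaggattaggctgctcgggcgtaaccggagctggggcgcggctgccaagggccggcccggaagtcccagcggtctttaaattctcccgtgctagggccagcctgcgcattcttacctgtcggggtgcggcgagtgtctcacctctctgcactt
ACGTG stood in 10 of the 16 hypoxia promoters found in the table (62.5%) and in 5900 of all 27305 promoters of that length (21.6%), which describes the sequences and not the binding of a factor here.

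Immediate early genes, which answer growth factor signals within minutes, also lay mostly below 0. Of 30 tested, 25 lay below 0 with hemin, against 49.9% of all genes, and the median was -0.23. At an unadjusted p under 0.05, 11 were lower and 1 higher, against 3.24% and 4.33% of all genes. EGR1, a zinc-finger factor induced through serum response elements, held 260, 234, 181, 188 and 198 CPM with hemin and 299, 274, 400, 318 and 254 without. The hemin library of well A6 lay just above the lowest untreated one, and the log2 fold change was -0.54 (SE 0.16, unadjusted p = 0.00113, adjusted p = 0.421). JUNB, an AP-1 subunit, had -0.48 (adjusted p = 0.478) and held 46.6 to 78.9 CPM with hemin and 77.9 to 100 without. FOSL2, another AP-1 subunit, held 40.9 to 50.4 CPM with hemin and 58.8 to 76.6 without, with no overlap (-0.55, adjusted p = 0.478). The 1 on the other side was ETV4, with 0.52 (adjusted p = 0.587). In Medium 1 the median of these genes was -0.035, with 6 higher and 5 lower at an unadjusted p under 0.05 (1172 and 1253 of all 11298 genes). With hemin added to kynurenine it was -0.196, with 0 higher and 6 lower (729 and 737 of all 11298 genes). Without the kynurenine library of well A7 it was -0.243, with 8 lower and 0 higher (600 and 584 of all 11298 genes).

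EGR1 had the smallest p in the test of the difference between media. Untreated spheroids of Medium 1 held 81.3 to 121 CPM and hemin spheroids 115 to 192, a log2 fold change of 0.60 (adjusted p = 0.0581), against -0.54 in Medium 2. The difference was -1.14 (SE 0.23, unadjusted p = 5.52e-06, adjusted p = 0.0624), which did not pass. It passed in DESeq2 (adjusted p = 0.00988), without a filter (0.00645) and with plate row as a term (0.00281). It also passed in the fit to the 4 groups alone (0.0386), with a 10 CPM filter (0.0472) and after thinning (0.0408). With 1 library left out, it passed without hemin library A6 (0.026) or untreated library C5 (0.0316). Without any other hemin or untreated library of Medium 2 it did not pass. The adjusted p then ran from 0.0576 (untreated library H4) to 0.233 (hemin library C6). With RLE scaling it did not pass either (0.0504). Over all genes this test called 0 of 11298 (0%), with 1508 at an unadjusted p under 0.05 (13.3%), and DESeq2 called 2. With hemin added to kynurenine in Medium 2, EGR1 fell by 0.70 on the log2 scale (adjusted p = 0.0371), 1 of 19 genes called there (0.168%). Without the kynurenine library of well A7, which stands apart from its group, 0 genes were called in that comparison and EGR1 had -0.68 (adjusted p = 0.145). The hemin plus kynurenine library of well H7, which also correlated less with its group, was kept in that fit.

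The EGR1 promoter is shown for its serum response elements (chr5:138465229-138465528, GRCh38.p14, plus strand, 250 bases before to 50 after the start), with 2 CArG boxes, the sites of serum response factor, in capitals.
EGR1: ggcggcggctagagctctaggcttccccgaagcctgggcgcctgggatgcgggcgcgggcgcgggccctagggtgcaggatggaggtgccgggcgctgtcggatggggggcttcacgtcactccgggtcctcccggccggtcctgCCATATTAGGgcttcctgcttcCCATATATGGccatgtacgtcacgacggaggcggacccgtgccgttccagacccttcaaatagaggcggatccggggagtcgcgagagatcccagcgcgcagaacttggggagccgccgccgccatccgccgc
A CArG box stood in 1 of the 22 immediate early promoters found (4.55%), that of EGR1, and in 351 of 27305 promoters (1.29%).

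**Figure D3:**
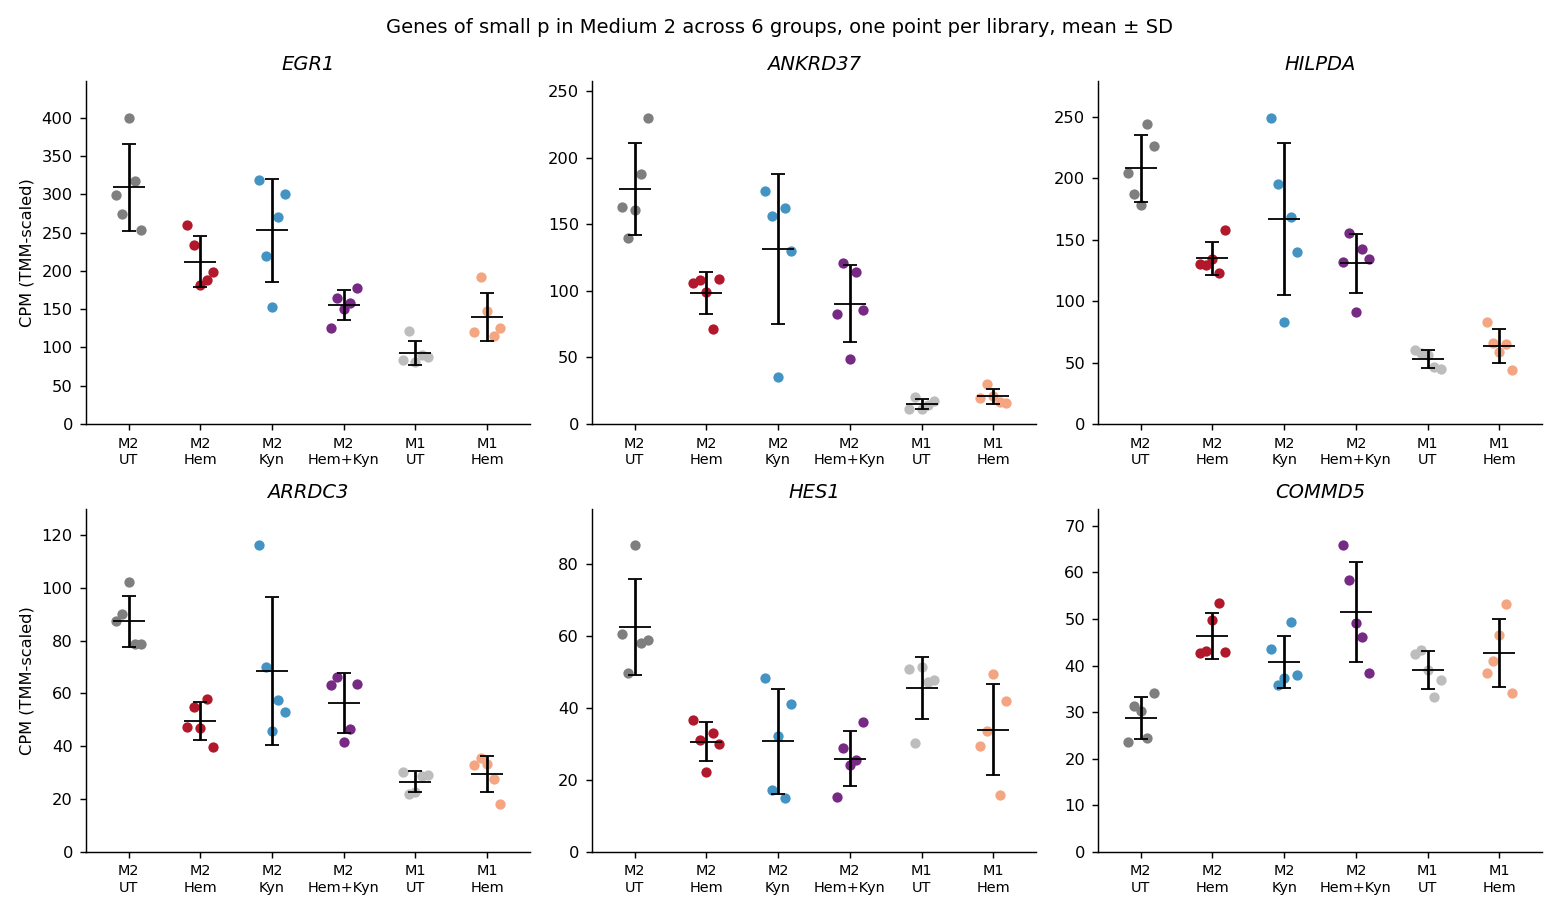
CPM (vertical axes, from 0) of EGR1, ANKRD37, HILPDA, ARRDC3, HES1 and COMMD5 in 6 groups of 5 libraries, with 1 point per library and bars for the mean ± SD, where M1 and M2 are the media, UT is untreated, Hem is hemin and Kyn is kynurenine. In Medium 2 the hemin libraries lie below the untreated ones for ANKRD37, HILPDA, ARRDC3 and HES1 and above them for COMMD5, and the kynurenine libraries without hemin spread over both ranges for ANKRD37 and HILPDA.

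HES1 and COMMD5 stood nearer to hemin than to no treatment under all 3 other single exposures of Medium 2, and EGR1 under 2 of them. HES1 had a median of 38.9 CPM with butyrate, 32.2 with kynurenine and 32.8 with kynurenic acid, beside 31.2 with hemin and 58.8 untreated. EGR1 had medians of 239, 271 and 179 CPM in these 3 groups, beside 198 with hemin and 299 untreated. COMMD5 had 40.2, 37.9 and 45, beside 43.1 with hemin and 30.2 untreated. Tested against the mean of the 3 other exposures, hemin had log2 fold changes of -0.14 for HES1, -0.01 for EGR1, -0.17 for ANKRD37, -0.14 for HILPDA, -0.34 for ARRDC3 and 0.13 for COMMD5, with adjusted p-values from 0.815 to 0.988. That test called 0 of 11298 genes (0%), with 678 at an unadjusted p under 0.05 (6%), and DESeq2 called 0 with 673. It shares the hemin libraries with the comparison against untreated spheroids. Against these exposures the median of the hypoxia list was -0.03, that of immediate early genes -0.07 and that of interferon genes -0.01, and without the kynurenine library of well A7 they were -0.03, -0.11 and -0.01.

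Most interferon response genes also lay below 0. Of 20 tested, 17 lay below 0 with hemin, against 49.9% of all genes, and the median was -0.24. At an unadjusted p under 0.05, 6 were lower and 0 higher, against 3.24% and 4.33% of all genes. IFIT2, which binds viral RNA, held 156, 168, 119, 137 and 150 CPM with hemin and 226, 199, 266, 184 and 186 without, with no overlap (-0.54, SE 0.15, unadjusted p = 0.000544, adjusted p = 0.368). IFIT1, its paralog, held 378 to 480 CPM with hemin and 498 to 579 without, also with no overlap (-0.30, adjusted p = 0.534). IRF9, the DNA-binding part of the interferon-activated complex, had -0.70, and the others at that threshold included IFIH1 and IFIT3. In Medium 1 the median was -0.11, with 4 lower and 0 higher at an unadjusted p under 0.05 (1253 and 1172 of all 11298 genes). With hemin added to kynurenine it was -0.02, with 1 lower and 1 higher (737 and 729 of all genes).

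Among starvation targets of FOXO and MondoA, 10 of 15 lay below 0, against 49.9% of all genes, with a median of -0.15. ARRDC3 and the cell cycle inhibitor CDKN1B (-0.35) were lower at an unadjusted p under 0.05 (3.24% of all genes). On the higher side there were 0 (4.33% of all genes). A pair of stress genes from other lists is given by value. The ATF4 list had 2 higher and 2 lower at that threshold (4.33% and 3.24% of all genes) and a median of 0.05. DDIT4 of that list, an inhibitor of mTORC1, held 402, 385, 254, 215 and 239 CPM with hemin and 453, 367, 613, 503 and 371 without. Hemin libraries A6 and B6 lay within the untreated range and the other 3 below it, a log2 fold change of -0.63 (adjusted p = 0.478). The list of 23 p53 targets had 2 higher and 3 lower at that threshold (4.33% and 3.24% of all genes) and a median of -0.02. GDF15 of that list, a stress cytokine, held 309 to 395 CPM with hemin and 440 to 484 without (-0.39, adjusted p = 0.567). Its groups did not overlap, and all hemin libraries lay below all untreated ones for 0.832% of all genes. FDXR of the p53 list and SLC3A2 of the ATF4 list were higher at that threshold. In Medium 1 GDF15 had 0.52 (adjusted p = 0.0637), and the difference between media was -0.91 (unadjusted p = 7.06e-05, adjusted p = 0.158).

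Growth-related lists had small medians. Of 25 mitosis genes 19 lay above 0, against 50.1% of all genes, with a median of 0.11. At an unadjusted p under 0.05, 3 were higher and 0 lower, against 4.33% and 3.24% of all genes. The 3 were the kinase AURKA (0.36, adjusted p = 0.478), the spindle gene NUSAP1 (0.39) and the securin PTTG1 (0.23). Of 77 cytosolic ribosomal protein genes 58 lay below 0, against 49.9% of all genes, with a median of -0.10. At an unadjusted p under 0.05, 6 were lower and 0 higher (3.24% and 4.33% of all genes), and all 77 intervals stayed within a 2-fold change. With hemin added to kynurenine that list had a median of 0.15 with 19 higher and 0 lower at an unadjusted p under 0.05. Over all 11298 genes that comparison had 729 higher and 737 lower. Without the kynurenine library of well A7, 9 of the list were higher and 0 lower, beside 584 and 600 over all genes. Of 13 genes of ferroptosis defence, 1 was higher and 0 lower at an unadjusted p under 0.05, against 4.33% and 3.24% of all genes. The median was 0.01. The 1 was SLC3A2, the heavy chain of the cystine transporter, with 133 to 155 CPM against 87.4 to 129 (0.40, adjusted p = 0.587). Its hemin libraries lay above all untreated ones, as they did for 0.823% of all genes. Of 21 genes of iron-sulfur cluster assembly, 2 were higher and 0 lower at an unadjusted p under 0.05, against 4.33% and 3.24% of all genes. The 2 were the ferredoxin reductase FDXR (0.52, adjusted p = 0.478) and NUBP2 (0.36).

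Without the hemin library of well E6, which stands apart, edgeR called 0 genes against untreated spheroids (smallest adjusted p = 0.404). HES1 then had -1.02, ANKRD37 -0.87, HILPDA -0.68, ARRDC3 -0.75, EGR1 -0.52 and HMOX1 -0.06. The medians were -0.28 for the hypoxia list, -0.22 for immediate early genes, -0.16 for interferon genes, 0.15 for mitosis genes and 0.04 for the NRF2 and BACH1 targets.

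**Figure D4:**
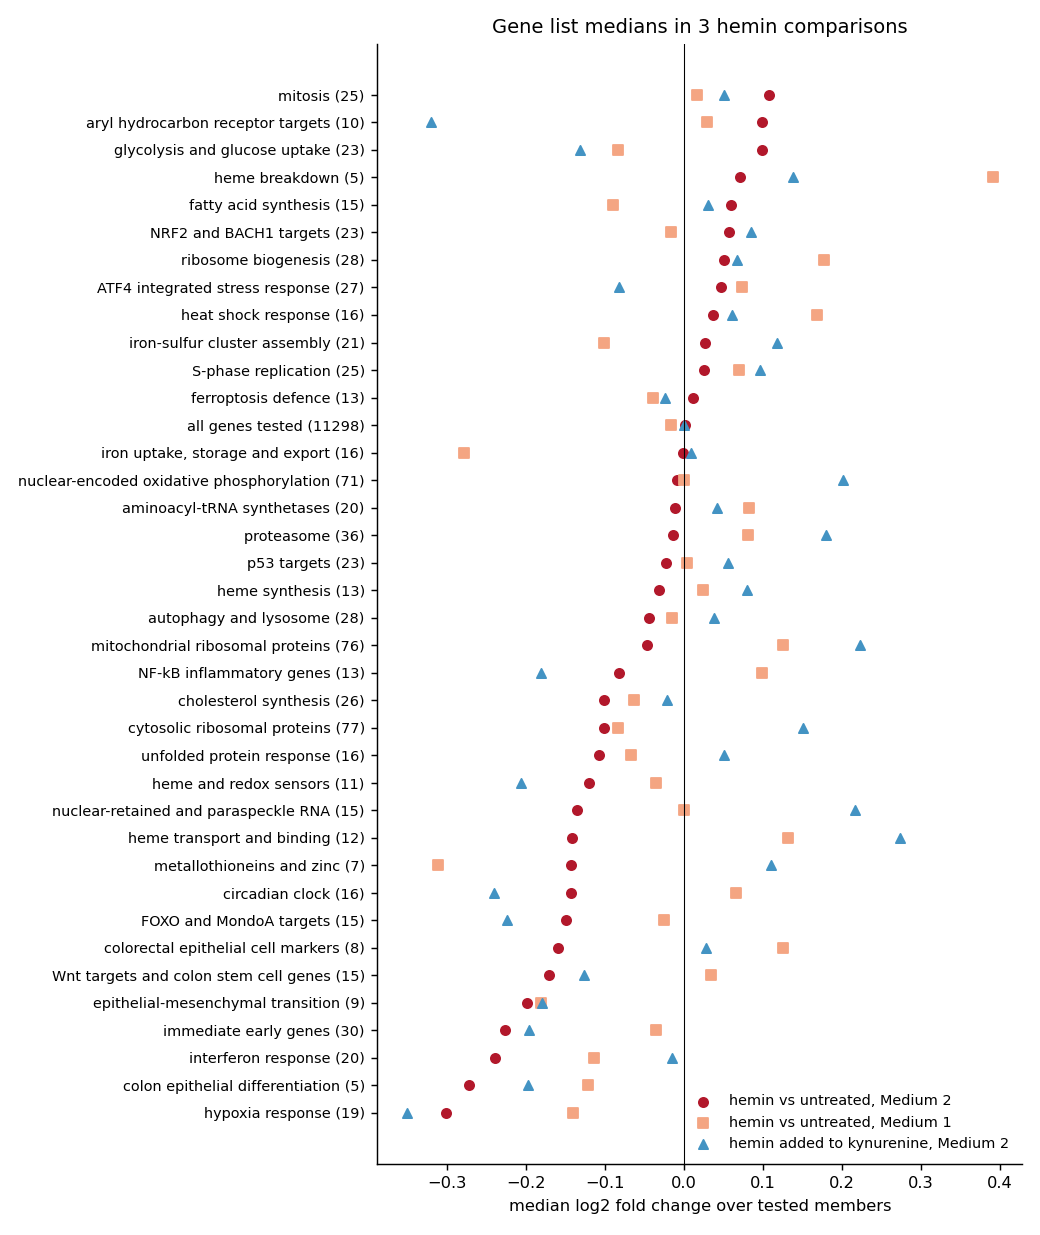
Median log2 fold change over the tested members of each gene list (horizontal axis; number of members in parentheses) for hemin against untreated spheroids in Medium 2 (circles) and Medium 1 (squares) and for hemin added to kynurenine in Medium 2 (triangles). In Medium 2 the hypoxia, immediate early and interferon lists lie at -0.30, -0.23 and -0.24, and the heme, iron and NRF2/BACH1 lists lie between -0.14 and 0.07.

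Some of the genes on the lower side also differ between the media. To describe this with other libraries, genes were taken that differed between Medium 2 and Medium 1 in the butyrate and kynurenic acid libraries (adjusted p under 0.05 and a log2 fold change of at least 1 in size), a set chosen after values were seen. Of 52 genes higher in Medium 2, 41 were lower and 11 higher with hemin than without, with a median of -0.22. At an unadjusted p under 0.05, 14 were lower and 2 higher, against 3.24% and 4.33% of all genes. For 7 all hemin libraries lay below all untreated ones and for 0 above, against 0.832% and 0.823% of all genes. The 7 include ANKRD37, ARRDC3, GDF15 and HILPDA. ADM, BHLHE40 and DDIT4 of the set lay below 0 with overlapping groups, while CYP1A1 and DDIT3 of the same set lay above 0. The set is not separate from the lists above. It holds ANKRD37, HILPDA, ADM and BHLHE40 of the hypoxia list and JUNB of the immediate early genes, among others. The 211 genes lower in Medium 2 had a median of 0.01, with 107 higher and 104 lower. Without the hemin library of well E6 the first median was -0.34 and the second 0.06. In Medium 1 the 52 genes had a median of -0.09 with hemin, and with hemin added to kynurenine -0.18, or -0.29 without the kynurenine library of well A7.

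**Figure D5:**
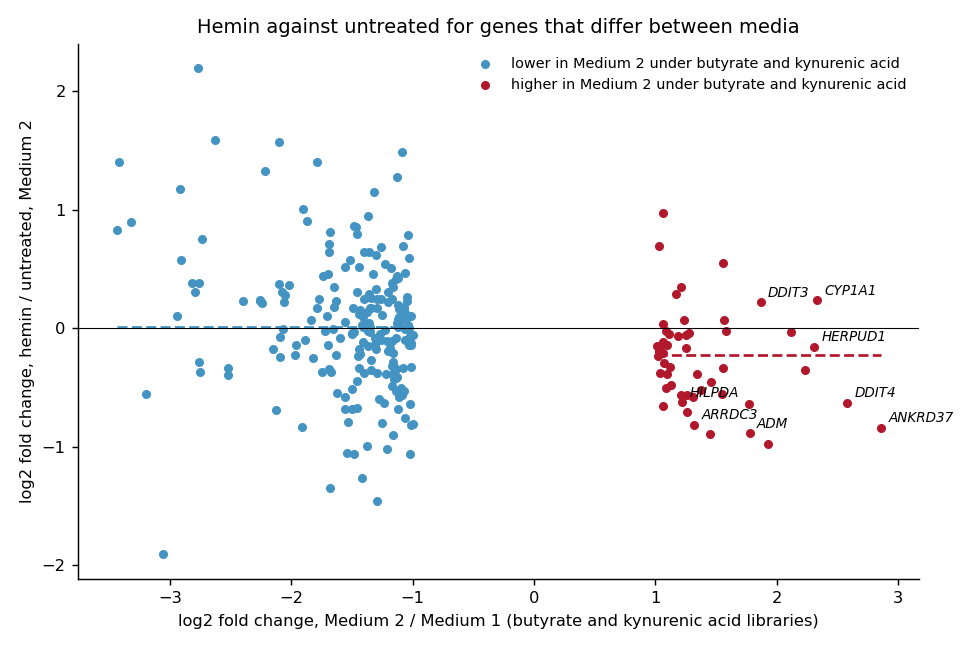
Log2 fold change of hemin against untreated spheroids in Medium 2 (vertical axis) against the log2 fold change between Medium 2 and Medium 1 in the butyrate and kynurenic acid libraries (horizontal axis), for 52 genes higher (red) and 211 lower (blue) in Medium 2, with dashed lines at the medians of -0.22 and 0.01. Most red genes lie below 0, and 3 genes beyond 2.5 in size on the vertical axis are not drawn.

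Over all genes, the direction seen in Medium 2 was shared with independent libraries about as often as not. The sign was the same in Medium 1 for 50.9% of 11298 genes and with hemin added to kynurenine for 45.1%, or 50.7% without the kynurenine library of well A7. Among the 855 genes at an unadjusted p under 0.05 the shares were 55.8% and 45.5%, and among the 366 lower ones 62.8% and 49.7%. A same direction with an unadjusted p under 0.05 in all 3 comparisons was seen for 6 of 11298 genes, where 7.57%, 21.5% and 13% of all genes had such a p in the single comparisons. Whether 6 is more than chance gives was not tested, and nothing is read from the count. They were DYNLL2, IFRD2 and SMG9 higher, and ETS2, PARP9 and SUN1 lower with hemin. DYNLL2, a dynein light chain, had 0.75, 0.50 and 0.44 in Medium 2, Medium 1 and on kynurenine (adjusted p = 0.368, 0.114 and 0.283). ETS2, a transcription factor downstream of Ras signalling, had -0.27, -0.30 and -0.49 (adjusted p = 0.587, 0.0983 and 0.0371). Without the kynurenine library of well A7, ETS2 had -0.49 on kynurenine (adjusted p = 0.145), and all 6 genes had the same direction and an unadjusted p under 0.05 there. In Medium 1 hemin called 15 of 11298 genes (0.133%), 5 higher and 10 lower, with 2425 at an unadjusted p under 0.05 (21.5%).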

How the data were processed

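The deposited table holds estimated counts per gene, which need not be whole, for 29744 genes in 60 libraries. Per the labels' protocols, the QuantSeq 3' FWD kit made libraries from 48 ng of RNA, tagged with unique molecular identifiers and amplified in 18 PCR cycles. The tools were Salmon 1.5.2, STAR, cutadapt 3.4, UMI-tools 1.1.2 and FastQC 0.11.9 on GRCh38, per the submitters' processing notes. What order, settings and gene annotation they had is not given in the sources used here. Reads shared by close copies or overlapping genes may be split between them.

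Estimated counts, 10.1% of them not whole, were rounded. Genes were kept by filterByExpr (minimum count 10, minimum total 15), which left 11298 genes with 99.62% of all counts. With edgeR 4.0.16 in R 4.3.3, TMM scaling and 1 mean for each of 12 groups, a quasi-likelihood model was fitted to all 60 libraries (48 residual degrees of freedom), and 6 contrasts were tested with two-sided F-tests and Benjamini-Hochberg adjustment over all genes. Intervals are 95% and cover the spread between libraries.

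Groups come from the sample titles. Another label reads untreated and nutrient-rich in all 60 samples and was not used. Replicate pairs within the 2 groups differed by more than sampling noise, and each library counts once. Of 41 gene lists, 37 had at least 5 tested members. The comparison, the lists and the genes were chosen with earlier results of these data known. Named genes were all those called, or with fewer than 20 called the 10 of smallest p in each direction, the called genes of other contrasts, the 3 members of smallest p of each list, and 26 genes of heme, iron and stress biology whatever their result. Some genes that this rule or the lists name are not reported here. Alternatives were RLE scaling, DESeq2 1.42.0, no filter, a filter at 10 CPM, the groups of a contrast alone, Medium 2 alone, plate row and thinning. Each of the 10 libraries of the main comparison and the kynurenine library of well A7 were also left out in turn.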

Additional observations from a re-analysis of the deposited data

Results flagged for a closer look

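Over 65 genes with printed values, the highest or lowest of 5 libraries stood far from the other 4 in 4 of 130 groups, a distance that chance gives in about 1 of 20 groups, so the number of cases is no more than chance gives. ANKRD37 had 71.3 CPM in the hemin library of well D6 and 99.3 to 109 in the others, so that the lowest hemin library lay farther from the untreated ones than the rest. NFE2L2 had 224 CPM in the untreated library of well A5 and 170 to 185 in the others. KCTD7 had 4.82 CPM in the untreated library of well G4 and 1.32 to 2.16 in the others, and CCDC7 had 0.66 CPM in that of well B5 and 6.05 to 8.1 in the others.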

How the results depend on the processing

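In hemin against untreated spheroids of Medium 2, 0 genes were called under every alternative, leaving out each of the 10 libraries included, apart from the fit to these 10 alone, which called 4 (HES1 -1.03, ARRDC3 -0.82, ANKRD37 -0.85 and HILPDA -0.63). None of the 20 genes of smallest p changed sign. HES1 ranged from -1.18 to -0.89 and HMOX1 from -0.17 to -0.01. The medians of 12 lists changed sign under some alternative. The hypoxia median ranged from -0.37 to -0.15 and the immediate early median from -0.27 to -0.20.

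In Medium 1, the 15 calls became 568 with DESeq2, 225 without a filter, 193 with its groups alone, 90 after thinning and 1 with plate row. The 19 calls of hemin added to kynurenine became 127 with DESeq2, 29 with RLE scaling, 8 with Medium 2 alone, 3 with plate row, 0 with its groups alone and 0 without the kynurenine library of well A7. The difference between media called 2 genes with DESeq2, without a filter and with its groups alone, and 1 with the 10 CPM filter, plate row and thinning. Leaving out a library gave 0, apart from 1 without the hemin library of well A6 and 1 without the untreated library of well C5. Its EGR1 value was -1.15, -1.16, -1.14, -1.15, -1.28 and -1.14 in these 6 fits, and -1.23 and -1.21 without the hemin library of well A6 and the untreated library of well C5. The response alone against that on kynurenine called 35 with DESeq2 and 1 without a filter, and hemin against the other exposures 2 without a filter and 1 with its groups alone. The cause of these shifts was not tested. No paired analysis was possible because the table's columns carry a plate well and no replicate number. With every library thinned to the smallest total, hemin against untreated spheroids of Medium 2 had a smallest adjusted p of 0.0617, beside 0.222 at full depth.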
